A study of Homo sapiens with 4 samples.

Results

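The comparison described here sets total RNA of HEK293T cells given a miR-34a mimic against total RNA of HEK293T cells given a control mimic. HEK293T cells come from human embryonic kidney and express the large T antigen of SV40, and a mimic is a short synthetic duplex from which the cell loads the wanted microRNA. Members are all genes with at least 20 sequencing reads in both libraries together, after the reads of a gene's transcripts were summed. This kept 14786 of the 16446 genes listed for these libraries, and 16487 genes were listed over the whole series. Just inside the minimum stood 76 genes with 20 reads, and just outside it 15 genes with 19 reads. The series also holds a pulldown pair, in which RNA was recovered on biotin-labelled miR-34a and on a control, with 6253 genes at the same minimum. There is 1 library for each of the 4 groups. Differences therefore have no replicate check, and p-values are not given. The control is labelled NC, and the sources used here do not give its sequence, the dose, the transfection or the time of harvest.

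miR-34a is a microRNA whose gene is switched on by p53. It is loaded into Argonaute proteins and guides them to messenger RNAs that pair with its seed, the bases 2 to 8 from its 5′ end, after which the messenger RNA is usually translated less and degraded. Most such sites lie in 3′ untranslated regions, and a change in the total RNA of treated cells mixes RNAs bound by the microRNA with those that change as a result. The mature sequence supplied by the mimic is shown with related mature microRNAs found in a RefSeq table on GRCh38.p14. It is shown because the seed defines the RNAs that the mimic can pair with. Capitals mark bases 2 to 8.
hsa-miR-34a-5p: uGGCAGUGucuuagcugguugu
hsa-miR-449a: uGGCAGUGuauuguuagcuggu
hsa-miR-449b-5p: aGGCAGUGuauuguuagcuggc
hsa-miR-34b-5p: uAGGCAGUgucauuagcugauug
hsa-miR-449c-5p: uAGGCAGUguauugcuagcggcugu
Of 2545 mature human microRNAs in the table, 3 including miR-34a itself have its seed at these positions. In miR-34b-5p and miR-449c-5p the same 7 letters begin at base 3 instead. The table need not hold every mature microRNA, so other members of the family may be missing from it. hsa-miR-34a-5p itself lies at chr1:9151735-9151756 on the minus strand. No 3′ untranslated sequence was used here, so genes could not be sorted by seed matches.

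The 2 libraries held 45493090 control and 42679778 mimic reads, with a median of 1208 and 1116 reads per gene, and the 20 most counted genes took 6.51% and 6.49% of them. All 10 markers of the HEK293T line chosen for the check were measured, among them the keratins KRT8 and KRT18, vimentin and the neurofilament gene NEFL. They went both ways: KRT8 had 40276 control and 53787 mimic reads and NEFL 6710 and 11237, whereas VIM had 28866 and 22532 and the cadherin CDH2 4711 and 3601. Of 6 blood markers, PTPRC, CD3E and HBB were not listed and the other 3 summed to 141 control and 110 mimic reads. Fibroblast markers summed to 3472 and 2880 reads over 5 of 6 listed genes, with DCN not listed. Liver markers summed to 2 and 0 reads over 1 of 3 listed, epithelial markers to 22 and 37 over 2 of 4, and muscle markers to 60 and 143 over 2 of 4, of which the desmin gene DES gave 26 and 129.

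All differences are log2 ratios of mimic over control reads after TMM scaling, a correction for library size and composition, and brackets give the 95% counting interval on the log2 scale. A gene was called higher or lower where it differed by at least 1.5-fold and its interval excluded equality. The intervals cover counting error in these libraries and not the variation between cultures. The median gene stood at 0.00, the quartiles at -0.18 and 0.21, and 5% of genes were below -0.54 and 5% above 0.89. By this rule 1004 genes (6.79%) were called higher and 364 (2.46%) lower, so that 73.4% of the called genes were higher. At 2-fold or more, 486 genes (3.29%) were higher and 153 (1.03%) lower. By the interval alone 3720 genes (25.2%) were above the control and 3435 (23.2%) below it. On the deposited RPKM scale every ratio is shifted down alike and the median gene stands at -0.65, so directions are given relative to the median gene.

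**Figure D1:**
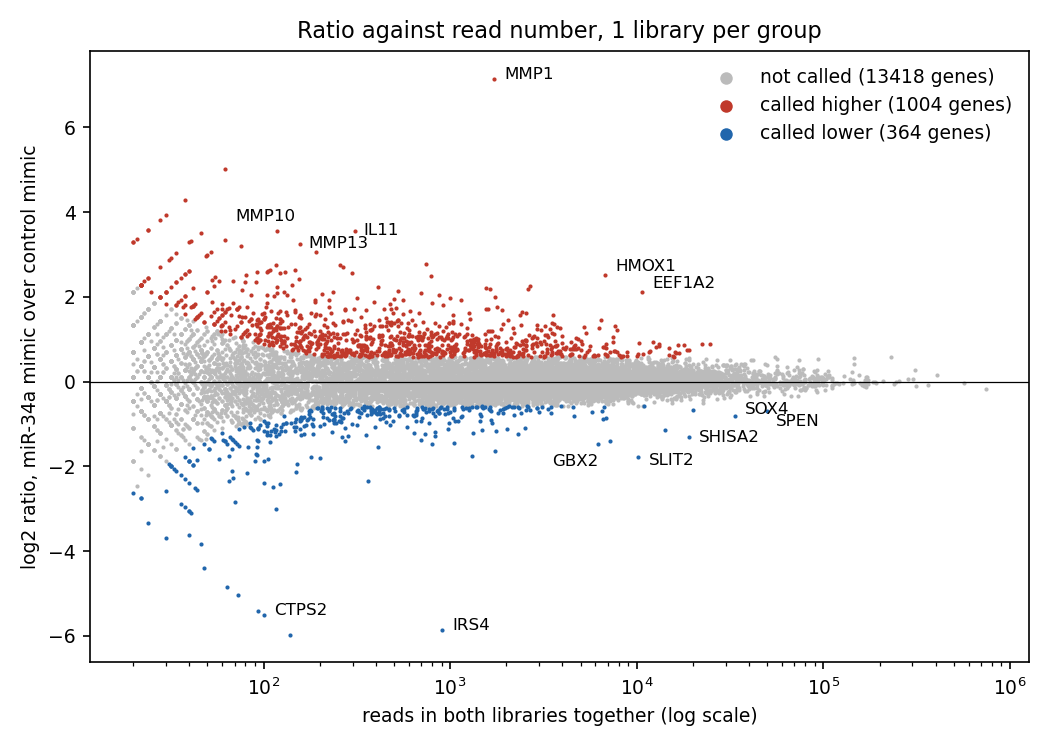
The log2 ratio of the miR-34a mimic over the control mimic is plotted against the reads of a gene in both libraries together on a log scale, 1 point per measured gene. The 1004 genes called higher are red, the 364 called lower are blue, and the spread of the points narrows as the number of reads grows.

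The calls lay mainly among genes with few reads. In the fifth of genes with the fewest reads (20 to 295), 13.45% were called higher and 6.28% lower, and in the fifth with the most reads (7375 to 745710) 1.25% and 0.24%. Genes with at least 10000 reads numbered 2051, of which 24 were called higher, 7 lower, and 4 differed by 2-fold or more. Most abundant RNAs of these cells therefore stood within 1.5-fold of the control, and the plot of ratio against read number shows the same narrowing. The gene lists below were not matched for reads. Their calls stand against the 6.79% higher and 2.46% lower of all genes.

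Among genes with at least 100 reads, MMP1, IL11, MMP10, MMP13 and A2M had the highest ratios. MMP1, interstitial collagenase, had 13 reads with the control and 1704 with the mimic, at 7.15 [6.06 to 8.53]. IL11, a cytokine of the interleukin 6 family, had 26 and 283 reads (3.56 [2.74 to 4.50]). MMP10, the protease stromelysin 2, had 10 and 108 reads (3.55 [2.24 to 5.23]). MMP13, another collagenase, had 16 and 140 reads (3.24), and A2M, a plasma protein that traps proteases, 22 and 170 (3.07). All 5 stood at 26 reads or fewer with the control. SFN, the 14-3-3 sigma gene of epithelial cells, had 102 and 639 reads (2.76). CXCL8, the neutrophil chemokine interleukin 8, had 36 and 222 (2.74). NUPR1, a stress-induced nuclear protein, had 38 and 228 (2.70). The other 7 of the 15 highest lay between 2.57 and 2.76: GOLGA7B, IL2RG, CX3CL1, SRPX2, PEAR1, S100A3 and NMRK2.

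Among genes with at least 10000 reads, EEF1A2 stood apart from the rest. EEF1A2, a translation elongation factor best known from neurons and muscle, had 2158 reads with the control and 8550 with the mimic (2.10). The next 9 of these abundant genes lay between 0.81 and 0.93. They were the tubulin TUBB2A, the arginine synthesis enzyme ASS1, the small heat shock protein HSPB1, SAPCD2, the glucose transporter SLC2A3, TMEM123, NEFL, the lysosomal protease CTSC and the lamin gene LMNA.

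The lowest ratios among genes with at least 100 reads came from genes of low level, and from 1 abundant gene. IRS4, an insulin receptor substrate on the X chromosome, had 887 reads with the control and 14 with the mimic, at -5.87 [-7.19 to -4.82]. CTPS2, a CTP synthase, had 98 and 2 reads (-5.50 [-10.83 to -2.95]). IAH1, an esterase, followed with 104 and 12 reads (-3.00). IRS4 and CTPS2 were thus nearly absent from the mimic library, whereas IAH1 kept some reads. RARB, a retinoic acid receptor, had 309 and 56 reads (-2.35), and EPHA7, an ephrin receptor, 124 and 26 (-2.14). HAS2, a hyaluronan synthase, had 122 and 29 (-1.96). ZNF22, TMEM47, MAP7D2, KRBA2, PIP5K1B, KHDRBS3 and NAP1L3 lay between -2.48 and -1.79. SLIT2, the abundant one, is described with the guidance genes.

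**Figure D2:**
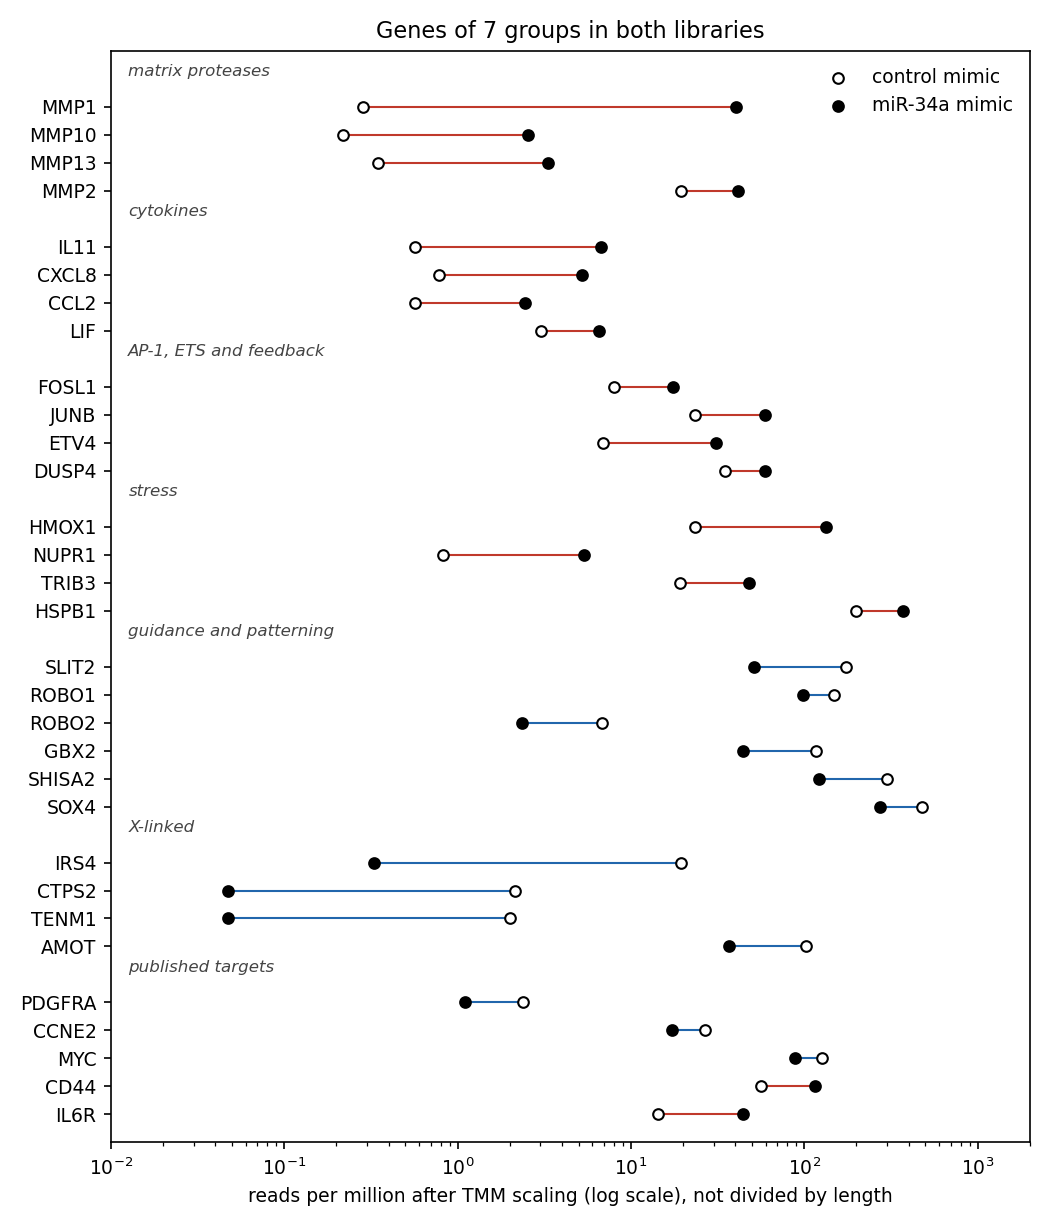
Levels in CPM, reads scaled to library size after TMM, on a log axis and not divided by gene length, in the control library (open circles) and the mimic library (filled circles), 1 library each. Red lines join genes that are higher with the mimic and blue lines those that are lower: MMP1 spans the widest gap upward and IRS4 the widest gap downward.

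Published targets of miR-34a stood on both sides of the control. Of 58 measured, 11 were called higher (18.97%) and 2 lower (3.45%), against 6.79% and 2.46% of all genes. Their median was -0.06 against 0.00 for all genes. The 2 called lower were PDGFRA and CCNE2. PDGFRA, a platelet-derived growth factor receptor, had 110 and 47 reads (-1.11 [-1.87 to -0.39]), and CCNE2, a cyclin of the step into S phase, had 1224 and 733 (-0.62 [-0.82 to -0.44]). By the interval alone 22 of the 58 were below the control and 19 above it.

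By role, the 9 cell cycle targets lay close to the control apart from CCNE2, with a median of -0.05. CDK4, a kinase of the G1 phase and the cell cycle target with the most reads, had 24752 and 25784 reads (0.17). E2F3, a transcription factor of the same phase, had 5048 and 3689 (-0.34). CDK6 had 4282 and 3807 (-0.05), and CCND1, cyclin D1, had 10529 and 10114 (0.06). These differences are all below 1.5-fold. Among 16 targets that act in transcription and chromatin, 3 were called higher and 0 lower, with a median of -0.13. MYCN, a MYC family factor, had 14 and 78 reads (2.59), and the AP-1 subunit FOSL1 368 and 741 (1.13). SNAI1, a repressor of epithelial genes, had 174 and 324 (1.01). Lower but short of the call, MYC had 5774 and 3728 reads (-0.52 [-0.60 to -0.43]) and FOXP1, a forkhead repressor, had 2258 and 1466 (-0.51). The deacetylase SIRT1, a long-studied target, had 2720 and 2331 (-0.11 [-0.22 to 0.01]). Among 18 targets in signalling and metabolism, the small GTPase RRAS was called higher with 571 and 811 reads (0.62), 0 were called lower and the median was -0.07. BCL2, an inhibitor of apoptosis, had 577 and 465 reads (-0.20 [-0.45 to 0.06]), and SMAD4, the shared factor of TGF-beta signalling, 2321 and 1704 (-0.33).

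Receptors and surface proteins differed most among the published targets. Of 15 measured, 7 were called higher and 1 lower, with a median of 0.71. IL6R, the interleukin 6 receptor, had 660 and 1882 reads (1.63 [1.44 to 1.81]). CD44, the hyaluronan receptor, had 2577 and 4891 (1.04 [0.94 to 1.14]). EMP1, an epithelial membrane protein, had 110 and 261 (1.36). PDGFRB, AXL, L1CAM and ULBP2 were also called higher, between 0.71 and 1.37, whereas PDGFRA was the one called lower. MET, the hepatocyte growth factor receptor, had 1986 and 1337 reads (-0.46 [-0.60 to -0.31]) and KIT 1080 and 802 (-0.31), both below the control and short of the call. NOTCH1, NOTCH2, JAG1 and DLL1, receptors and ligands of the Notch pathway, lay between -0.18 and -0.03. The deposited UTR subset, a list of genes for which the sources used here give no criterion, held 43 of the 58 targets. Of its 3810 measured genes 7.48% were called higher and 2.34% lower, against 6.55% and 2.51% of the 10976 other genes, and the medians were both 0.00.

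**Figure D3:**
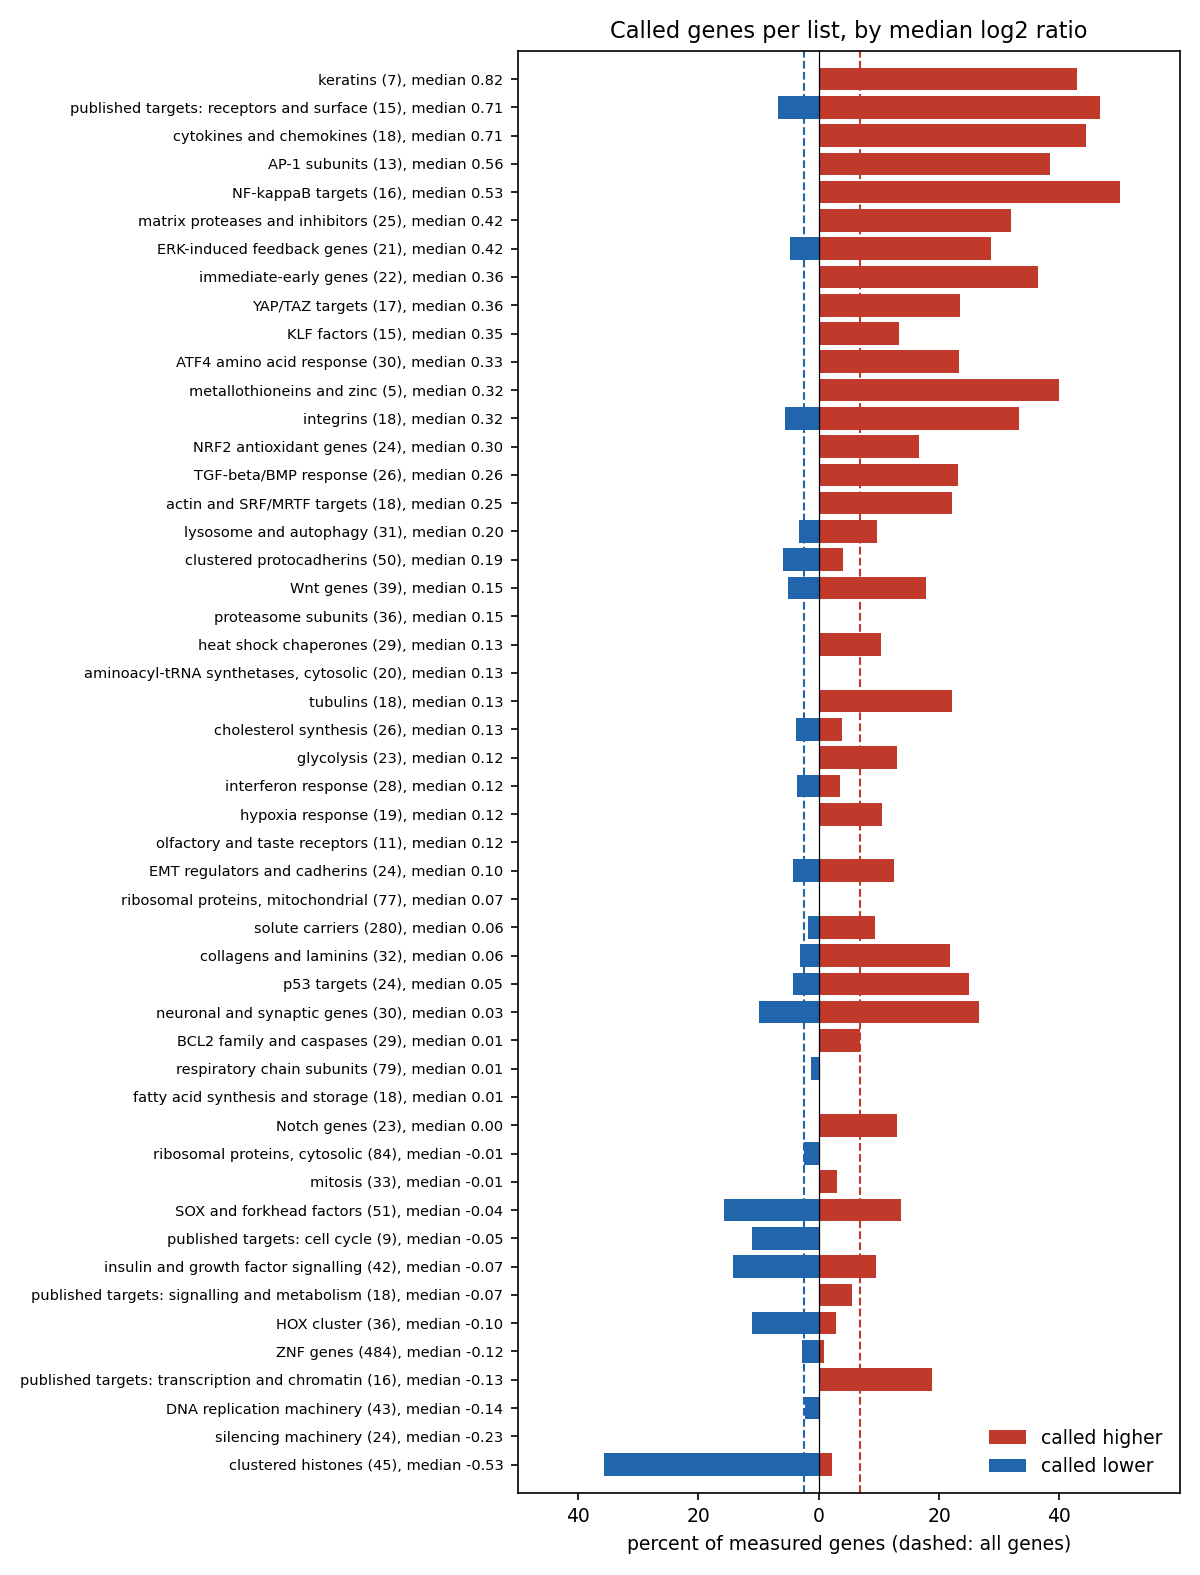
Bars show the percent of the measured genes of each list that were called higher (red, right) and lower (blue, left), with the number measured and the median log2 ratio beside the name and the lists in order of the median. Dashed lines mark the 6.79% and 2.46% of all genes; of the lists drawn, NF-kappaB targets reach the highest share called higher and clustered histones the highest share called lower; lists made after the values were seen are not drawn.

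Genes of the AP-1 family were higher in part. AP-1 is a dimer of JUN, FOS, ATF or MAF family proteins that binds the motif TGANTCA and drives protease and cytokine genes. Of 13 measured subunits, 5 were called higher and 0 lower, with a median of 0.56. JUNB had 1075 and 2527 reads (1.35) and MAFF, a small MAF protein, 146 and 353 (1.39). FOSL1 was at 1.13, FOSL2 had 736 and 1383 reads (1.03) and BATF3 194 and 336 (0.91). The remaining subunits were not called. JUN itself, the most counted subunit, had 11383 and 7852 reads and was the one below the control (-0.42 [-0.48 to -0.36]). FOS had 91 and 107 (0.35 [-0.25 to 0.95]) and ATF3 1647 and 1568 (0.04).

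Immediate-early genes, which cells switch on within minutes of a stimulus, had 8 of 22 called higher and 0 lower, with a median of 0.36. EGR2, a zinc finger factor, had 31 and 91 reads (1.67), and ARC, a synaptic gene, 629 and 1804 (1.64). IER3, a survival gene, had 984 and 2235 (1.30). IER5L and the nuclear receptor NR4A1 stood at 0.87 and 0.82. EGR1, by contrast, had 902 and 690 reads (-0.27). Genes that ERK signalling induces to restrain or extend itself had 6 of 21 called higher and 1 lower, with a median of 0.42. ETV4 and ETV5, ETS factors downstream of ERK, had 315 and 1315 reads (2.18 [1.92 to 2.44]) and 294 and 618 (1.19). TNFRSF12A, a receptor of the TNF family, had 1078 and 2332 (1.23). The lower one was the ephrin receptor EPHA4 (957 and 506 reads, -0.80). Among the ERK inhibitors on this list, the phosphatase DUSP4 was called higher with 1604 and 2501 reads (0.76 [0.63 to 0.89]). SPRY1 and DUSP6 were not called, at -0.29 and -0.17, and neither were DUSP5 and SPRY4, at 0.54 and 0.55.

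The AP-1 motif was looked up in promoters because AP-1 genes and known AP-1 targets such as MMP1, MMP10 and IL11 were high together. The search used 250 bases before to 50 after each gene start in the RefSeq promoter table on GRCh38.p14, on both strands; TGANTCA reads the same on the other strand, with N any base. A promoter was found for 11618 measured genes (78.6%), 723 of those called higher (72.0%) and 271 of those called lower (74.5%). The motif was in 545 of the 11618 promoters (4.69%). It was in 79 of the 723 (10.93%) and in 15 of the 271 (5.54%), and in 12 of 56 promoters of genes at least 4-fold higher (21.43%). In all 27305 promoters of the table the share was 7.76%. The form TGAGTCA, which is among these matches, was in 3.13% of the promoters of measured genes, 8.16% of those called higher and 1.48% of those called lower, and in 4.92% of the whole table. TGACGTCA, the cyclic AMP response element, was in 3.16%, 1.52% and 3.32%, and in 1.98% of the whole table. Of the 545 genes with TGANTCA 14.5% were called higher, and of the other 11073 5.82%.

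The windows below are those of the highest genes with at least 100 reads whose promoter holds TGANTCA before the start, shown because the share with the motif was larger among genes called higher than among all measured genes. Each runs 5′ to 3′ on the gene's strand, with the motif in capitals.
IL11: ggcagggagggTGAGTCAggatgtgtcag
MMP10: aaacacatgcaTGAATCAtactgttggtg
SFN: gactgttctgaTGATTCAcccccacatcc
CXCL8: aggaagtgtgaTGACTCAggtttgccctg
SRPX2: ttatgtcatgcTGAGTCAtaaaaagaagt
S100A3: ggaatcaggagTGAGTCActgggctagca
The IL11 window is chr19:55370542-55370570 and the MMP10 window chr11:102780678-102780706, both on the minus strand, with the motif beginning 96 and 67 bases before the start. The SFN window is chr1:26862968-26862996 and the CXCL8 window chr4:73740421-73740449, both on the plus strand, 170 and 137 bases before the start. The SRPX2 window is chrX:100644079-100644107 on the plus strand (109 bases) and the S100A3 window chr1:153549466-153549494 on the minus strand (225 bases). TGACTCA in CXCL8 is TGAGTCA read on the other strand, and TGATTCA in SFN is TGAATCA, so the 6 windows hold 2 forms of the motif. MMP1 and MMP13 gave no such window. Of the 96 genes called at least 4-fold higher, 56 (58.3%) had a promoter in the table. A gene without a window here may thus lack a listed promoter or lack the motif in the bases searched. A match is a string of letters and no measure of binding.

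Matrix proteases and their inhibitors had 8 of 25 called higher and 0 lower, with a median of 0.42. Beside MMP1, MMP10 and MMP13, the gelatinase genes MMP2 and MMP9 were called, MMP2 with 887 and 1756 reads (1.10 [0.93 to 1.27]) and MMP9 with 4 and 19 (2.36 [0.11 to 5.60]). MMP11, the urokinase gene PLAU and the protease inhibitor SERPINE2 stood between 0.60 and 0.72. The tissue inhibitors TIMP1, TIMP2 and TIMP3, which block these enzymes, lay between 0.22 and 0.39 and were not called. PLAT, the tissue plasminogen activator, was below the control with 1524 and 1003 reads (-0.49). Cytokines and chemokines had 8 of 18 called higher and 0 lower, with a median of 0.71. Next to IL11 and CXCL8 these were IL1A, which had 4 and 20 reads, CCL2, a monocyte chemokine with 26 and 103 (2.10), and CLCF1, LIF, CXCL16 and CSF1, between 0.92 and 1.23.

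NF-kappaB targets had 8 of 16 called higher and 0 lower, with a median of 0.53, and CXCL8 and IER3 are among the 8. ICAM1, an adhesion molecule for leukocytes, had 217 and 695 reads (1.79 [1.48 to 2.12]) and RELB, an NF-kappaB subunit, 136 and 330 (1.39). NFKBIA, the inhibitor that NF-kappaB induces, had 1432 and 2035 (0.62). Interferon response genes, another defence group, had 1 of 28 called higher and 1 lower, with a median of 0.12. Either share is 3.6%, against 6.79% higher and 2.46% lower of all genes. The higher one was BST2, a protein that tethers viruses (118 and 255 reads, 1.23), and the lower one MX1 (59 and 26 reads, -1.07). Of 21 TNF receptor family genes, a list drawn up after the values were seen, 8 were called higher and 1 lower (TNFRSF10D, a decoy receptor for TRAIL, 462 and 275 reads).

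Structural genes of the cell surface and cytoskeleton were mixed. All 7 measured keratins stood above the control, 3 of them called, with a median of 0.82; KRT19 had 2506 and 4089 reads (0.82) and KRT17 256 and 533 (1.17). KRT8 and KRT18, the pair that HEK293T cells make most of, were at 0.53 and 0.50 and not called. Of 18 integrins, 6 were called higher and 1 lower, with a median of 0.32. ITGA5, the fibronectin receptor chain, had 2619 and 4213 reads (0.80) and ITGA7, a laminin receptor chain, 592 and 1283 (1.23). ITGA8, a chain known from kidney development, was the lower one with 72 and 20 (-1.73). Collagens and laminins had 7 of 32 called higher (21.9%, against 6.79% of all genes) and 1 lower (3.1%, against 2.46%). Their median was 0.06. LAMB3, a laminin of epithelial basement membrane, had 142 and 560 reads (2.10), COL9A3 948 and 2593 (1.57) and COL6A2 1615 and 3612 (1.28). COL3A1, a fibrillar collagen, was called lower with 416 and 248 (-0.63). Of 18 tubulins 4 were called higher and 0 lower, with a median of 0.13, among them the neuronal TUBB3 with 1198 and 2671 reads (1.27). Targets of the actin-regulated factor SRF had 4 of 18 called higher (22.2%, against 6.79% of all genes) and 0 lower. Their median was 0.25, and among the 4 was CNN2, a calponin, with 2546 and 4116 reads (0.81). YAP and TAZ targets had 4 of 17 called higher and 0 lower, with a median of 0.36. ANKRD1 had 1153 and 2373 reads (1.16), while CYR61 and CTGF, the targets used most often as readouts, were at 0.45 and 0.41 and not called. Of 26 genes of TGF-beta and BMP signalling 6 were called higher and 0 lower, with a median of 0.26; the ligand TGFB1 had 2467 and 5327 reads (1.23 [1.13 to 1.32]) and the BMP antagonist NOG 176 and 501 (1.62).

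HMOX1, heme oxygenase, had 1076 and 5659 reads (2.51 [2.38 to 2.65]), the largest ratio of the 24 NRF2 antioxidant genes, of which 4 were called higher and 0 lower with a median of 0.30. The classical NRF2 targets NQO1 and GCLM were not called, at 0.30 and 0.26. Of 30 genes of the ATF4 amino acid response, 7 were called higher and 0 lower, and 28 stood above equality, with a median of 0.33. TRIB3, a pseudokinase, had 877 and 2037 reads (1.33) and CEBPB, a transcription factor, 1151 and 2600 (1.29). SLC7A11, the cystine transporter on both lists, had 1104 and 1813 (0.83). ATF4 itself had 18868 and 19011 reads (0.13), and ASNS, asparagine synthetase, 3219 and 3740 (0.33), so neither was called. The 20 cytosolic aminoacyl-tRNA synthetases, many of them ATF4 targets, had 0 called and a median of 0.13. Heat shock chaperones had 3 of 29 called higher (10.3%, against 6.79% of all genes) and 0 lower, with a median of 0.13. HSPB1 had 9128 and 15631 reads (0.89 [0.84 to 0.94]), HSPB8 913 and 2003 (1.25) and HSPA6 18 and 54 (1.70). HSPA1A and HSPA1B, near-identical genes whose reads cannot be assigned with certainty, were at 0.58 and 0.56. The zinc-binding metallothioneins MT1X and MT2A, also similar copies, were both at 0.65 and called.

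p53 targets had 6 of 24 called higher and 1 lower, with a median of 0.05, and by the interval alone 9 stood above the control and 9 below it. SV40 large T antigen binds p53, and HEK293T cells express it. SFN led at 2.76. CDKN1A, the cell cycle inhibitor p21, had 3007 and 4568 reads (0.72 [0.62 to 0.81]), and GADD45A, a stress response gene, 1706 and 2680 (0.77). GDF15, PHLDA3 and the death receptor FAS stood between 0.64 and 1.28, and MDM2, the ubiquitin ligase of p53, at -0.32.

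The 7 genes with at least 10000 reads that were called lower were SLIT2, SHISA2, ZNF503, SOX4, SPEN, FOXC1 and ROBO1. SLIT2, a secreted guidance ligand, had 8032 reads with the control and 2160 with the mimic (-1.78 [-1.88 to -1.68]), the lowest of the genes with at least 10000 reads. Of 6 measured Slit and Robo genes, a list drawn up after these values were seen, 3 were called lower and 0 higher, with a median of -0.39. The other called genes were the Slit receptors ROBO2, with 313 and 99 reads (-1.55), and ROBO1, with 6769 and 4155 (-0.59). Other guidance families went both ways. Of 21 Eph receptors and ephrins 3 were called higher (EFNA2, EPHB2 and EFNB3) and 3 lower (EPHA7, EPHA3 and EPHA4). Of 28 semaphorins and plexins 3 were called higher, among them SEMA6B with 505 and 2124 reads (2.19), and 3 lower, among them SEMA3C with 685 and 289 (-1.13). These lists too were made with the values in view.

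Of the other genes with at least 10000 reads that were called lower, SHISA2, of a family known from frog embryos to hold back Wnt and FGF receptors, had 13841 and 5129 reads (-1.32 [-1.38 to -1.25]). ZNF503, a zinc finger repressor, had 9924 and 4176 (-1.13), and SOX4, a factor of progenitor cells, 22003 and 11515 (-0.82). Every gene called lower lies below the 5% point of all genes (-0.54), because the call needs at least 1.5-fold. SPEN, a corepressor of Notch target genes, had 31924 and 18098 reads (-0.70 [-0.74 to -0.67]). FOXC1, a forkhead factor of mesoderm, had 12738 and 7351 (-0.68). The growth factor MDK and TMEM245, both at -0.58, and the heterochromatin protein CBX5 at -0.51 completed the 10 lowest of these genes and were not called. GBX2, a homeobox factor of the hindbrain with fewer reads, had 5330 and 1875 (-1.39). On a list of 26 homeobox and related patterning genes, made after values were seen and without every gene of these families, 5 were called higher (EN1, EN2, LHX8, PAX7 and OTX1) and GBX2 lower, with a median of 0.28. In the pulldown pair, SPEN had 239 control and 671 miR-34a reads, SLIT2 44 and 107 and ROBO1 46 and 74. FOXC1 had 78 and 87, SHISA2 119 and 116, SOX4 95 and 66 and ZNF503 30 and 23. CDK4, which was not called, had 148 and 313. Among genes called higher with the mimic, NOTCH3 had 5 and 126, MYCN 2 and 59 and HMOX1 23 and 20. These counts are not corrected for the deeper miR-34a pulldown, and how they relate to the ratios was not tested.

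SOX and forkhead factors split, with 7 of 51 called higher, 8 lower and a median of -0.04. Besides SOX4 and FOXC1, the lower ones include SOX3, SOX5, SOX6 and FOXP2, between -0.94 and -0.73. The higher ones include SOX21, SOX18, SOX8 and FOXA2, between 0.98 and 1.56. HOX genes, which set position along the body axis, had 4 of 36 called lower (11.1%, against 2.46% of all genes). In the same list 1 was called higher (2.8%, against 6.79%), and the median was -0.10. The 4 lie in the HOXA cluster on chromosome 7: HOXA5 had 1758 and 762 reads (-1.09), HOXA3 1140 and 537 (-0.97), HOXA10 755 and 391 (-0.83) and HOXA2 138 and 82 (-0.64). HOXD1 was higher with 38 and 73 (1.06). Wnt pathway genes had 7 of 39 called higher (17.9%, against 6.79% of all genes) and 2 lower (5.1%, against 2.46%). Their median was 0.15. The ligands WNT3A, WNT10B and WNT6 were higher, at 1.42, 1.04 and 0.83. The ligand WNT5A (1433 and 765 reads, -0.79) and the stem cell receptor LGR5 (3029 and 1586 reads, -0.82) were lower. Notch genes had 3 of 23 called higher (13.0%, against 6.79% of all genes), namely NOTCH3, DLL3 and LFNG. Of the 23, 0 were called lower (against 2.46% of all genes), and the median was 0.00.

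Insulin and growth factor signalling had 6 of 42 genes called lower (14.3%, against 2.46% of all genes) and 4 higher (9.5%, against 6.79%). The median was -0.07. Beside IRS4, PIK3R3 and PIK3R1, regulatory subunits of phosphoinositide 3-kinase, had 4405 and 2206 reads (-0.88) and 1014 and 617 (-0.60). GAB1, a docking protein of receptor kinases, had 801 and 466 (-0.67). IGFBP5 and IGFBP3, which bind insulin-like growth factors, had 1661 and 654 (-1.23) and 526 and 246 (-0.98). In the same family IGFBP4 and IGFBP6 were higher, at 0.75 and 0.78, as was the ligand IGF2 at 0.99. AMOT, a scaffold of the Hippo pathway on the X chromosome, had 4680 and 1557 reads (-1.47 [-1.59 to -1.35]), while its relatives AMOTL1 and AMOTL2 stood at -0.12 and 0.42 and were not called.

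Clustered histone genes had the lowest median of all lists, -0.53, with 16 of 45 called lower and 1 higher, and 8 neighbours of the HIST2 cluster on chromosome 1 (149832657 to 149886682) were all called lower. The 1 called higher, HIST2H2AC with 24 and 60 reads (1.44), adjoins them in the same cluster. HIST2H2AA3 had 596 and 199 reads (-1.47 [-1.81 to -1.14]), HIST2H2BE 256 and 98 (-1.27) and HIST1H1C, a linker histone, 1114 and 549 (-0.91). Several of these genes are near-identical copies, so reads may be split among them with error, and most histone messages lack the poly(A) tail, and the sources used here do not say how the libraries selected RNA. The DNA replication machinery had 0 of 43 called higher (against 6.79% of all genes) and 1 lower, CCNE2 (2.3%, against 2.46%). Of the 43, 39 stood at or below equality, against 7487 of all 14786 genes, and their median was -0.14. Mitosis genes had 1 of 33 called higher (3.0%, against 6.79% of all genes), the phosphatase CDC25B at 0.59, and 0 lower. Their median was -0.01. The silencing machinery that carries out microRNA action had 0 of 24 called, against 6.79% higher and 2.46% lower of all genes. Of the 24, 20 stood at or below equality, with a median of -0.23. PAN2 and CNOT6, parts of the deadenylases that shorten poly(A) tails, were lowest at -0.52 and -0.47. AGO2 was at 0.33 with 1082 and 1252 reads, and AGO1 at -0.31 with 4404 and 3287. Zinc finger genes named ZNF had 4 of 484 called higher (0.8%, against 6.79% of all genes) and 13 lower (2.7%, against 2.46%). Their median was -0.12, and 345 of the 484 stood at or below equality, against 7487 of all 14786 genes.

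None of 77 mitochondrial ribosomal protein genes and none of 36 proteasome genes was called, with medians of 0.07 and 0.15. In the fifth of all genes with the most reads, 1.25% were called higher and 0.24% lower, so calls are few among abundant genes in general. Of 84 cytosolic ribosomal protein genes RPL3L and RPL22L1, paralogs of RPL3 and RPL22, were called lower, and the median was -0.01. Of 79 respiratory chain genes 1 was called, UQCRHL, a near-copy of UQCRH whose reads are uncertain. Fatty acid synthesis had 0 of 18 called. Among 26 cholesterol synthesis genes INSIG1, a brake on the pathway, was called higher at the limit of the call (3437 and 4759 reads). Glycolysis had 3 of 23 called higher (13.0%, against 6.79% of all genes) and 0 lower: the neuronal enolase ENO2, the lactate exporter SLC16A3 and SLC2A3.

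**Figure D4:**
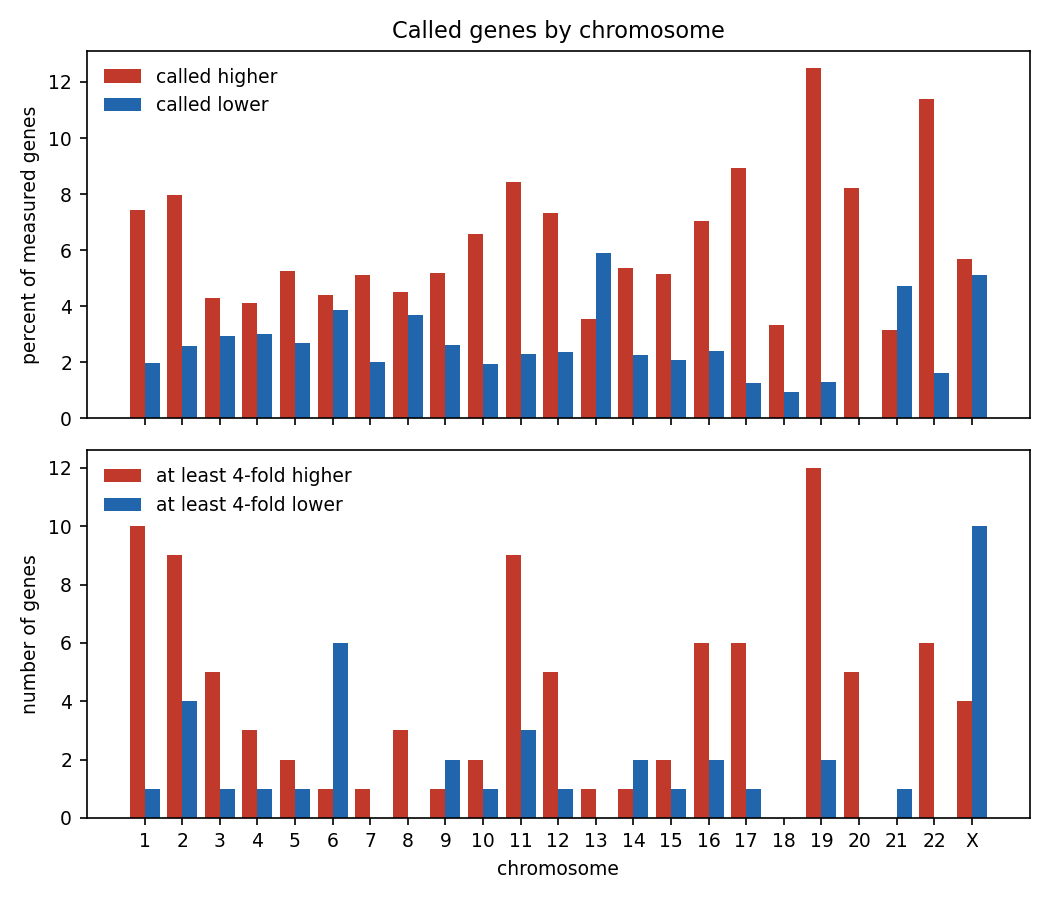
The upper bars give the percent of measured genes called higher (red) and lower (blue) on each chromosome, and the lower bars the number of called genes at least 4-fold higher or lower. Chromosome 19 has the highest share called higher, 12.49%, chromosome 13 the highest share called lower, 5.91%, and the X chromosome the most genes at least 4-fold lower, 10.

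Calls were uneven along the genome. Chromosome 19 had the highest median of the chromosomes with at least 200 genes, 0.14 over 1081 genes, with 12.49% called higher and 1.30% lower. Its 5 highest genes with at least 100 reads were IL11, NMRK2, the protease KLK7, ZFR2 and CD70, a ligand of the TNF family with 77 and 333 reads (2.23). Chromosome 13 had the lowest, -0.12 over 254 genes, with 3.54% called higher and 5.91% lower; SHISA2 and the protocadherin PCDH9 (950 and 380 reads, -1.21) lie on it. On chromosome 20, 32 of 390 genes were called higher (8.21%, against 6.79% of all genes) and 0 lower (against 2.46%). The X chromosome, with 527 of the 14786 measured genes, had 30 called higher (5.69%) and 27 lower (5.12%). It holds 10 of the 41 genes called at least 4-fold lower and 4 of the 96 called at least 4-fold higher, and 6 of the 7 genes at or below -4, among them IRS4, CTPS2 and the teneurin TENM1 (92 and 2 reads, -5.41). These counts were read off after the ratios were known.

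Some neighbours were called together. Runs of at least 3 adjacent measured genes with the same call numbered 18 for higher and 1 for lower, the latter being the HIST2 run. Runs of at least 4 numbered 5 and 1. On chromosome 11 TMEM123, MMP10, MMP1, MMP12 and MMP13 formed 1 run (102396332 to 102955732). On chromosome 19 the kallikrein proteases KLK1, KLK4, KLK6, KLK7 and KLK8 formed another (50819146 to 51001604), with KLK7 highest at 26 and 116 reads (2.27). On chromosome 1 the calcium-binding S100A4, S100A3, S100A2 and S100A16 did so (153543621 to 153613137), with S100A16 at 149 and 412 reads (1.58). ICAM1, ICAM4 and ICAM5 lie side by side on chromosome 19 (10271120 to 10296778). The sources used here do not say whether the counting used the strand, so reads of overlapping genes on opposite strands cannot be told apart. Ratios also moved with the span of a gene in the genome. The fifth of genes with the shortest span had a median of 0.09, with 10.23% called higher and 2.98% lower, and the fifth with the longest span -0.09, with 3.76% and 4.14%; the part of span in the calls above was not tested. Genes with noncoding transcripts alone numbered 433, with a median of -0.10, 11 called higher and 19 lower. The 14353 genes with a coding transcript had a median of -0.0016, with 993 called higher and 345 lower. Of all genes, 6.79% were called higher and 2.46% lower.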

How the data were processed

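Trizol was used to isolate the RNA, per the labels' protocols. The values are whole-number read counts per RefSeq transcript, deposited by the authors without normalization; the authors also deposited RPKM values beside them. Bowtie2, edgeR and hg38 are named, per the submitters' processing notes, without versions or roles. Counts were summed per gene name; 60 rows whose names had become dates were resolved by accession and 2 rows without a name (1492 reads) left out. Of 30073 transcripts 98.3% matched the RefSeq table of GRCh38.p14, which gives the coordinates. TMM factors came from edgeR 4.0.16 (R 4.3.3). Intervals are exact conditional binomial (Clopper-Pearson, scipy 1.17.1) on counts divided by 2, since 96.0% of control counts from 2 to 9 were even. A library at 0 was set to 3 reads. The lowest control count is 1, so genes without control reads are not listed. One read's RPKM worth had a mimic over control ratio of 0.6941 against 1.0659 expected from the totals, so RPKM served only as an alternative scaling. The procedure was tested on simulated data.

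Members and lists were chosen with earlier results of these data known. Genes were named by rule: the 15 highest and lowest with at least 100 reads, the 10 with at least 10000, published targets called and the 5 lowest and highest others, up to 5 called members of each of 53 lists, and the 5 extreme genes of 2 chromosomes; other names, including uncalled members and the 10 added lists, were chosen after values were seen. A few genes chosen by this rule were left unreported. The planned sorting of genes by seed sites was not made. Alternatives were library totals, DESeq2 1.42.0 size factors, deposited RPKM, other read minimums, the transcript with most reads, undivided counts, 2-fold and a 99% interval.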

Additional observations from a re-analysis of the deposited data

How the results depend on the processing

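With 1 library per group, leaving out a replicate could not be run, and a difference between cultures cannot be told from one between treatments. No paired analysis was possible because each group has 1 library. The median log2 ratio of all genes was -0.0037; it was -0.0271 on library totals, 0.0039 with no read minimum and -0.646 on deposited RPKM, which shifts all ratios alike. On that scale 196 genes were higher, all 196 of them also called with TMM scaling, and 8177 lower, among them all 364 called with TMM scaling. Read relative to its own median gene, an alternative chosen after seeing the data, deposited RPKM gave 1010 higher and 357 lower. With 2-fold in place of 1.5-fold 486 were higher and 153 lower. The other alternatives gave 848 to 1184 higher and 284 to 517 lower genes. Named genes were compared under library totals, DESeq2 size factors, deposited RPKM relative to its median gene, a minimum of 100 reads and the transcript with most reads. Deposited RPKM as it stands, which shifts all ratios down, was left out of this comparison. Of 1238 such values, 1224 moved by less than their counting interval and 0 changed direction. The other 14 moved by more, all of them with the transcript with most reads. Among 237 called genes with under 100 reads, counting error is widest.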
